A study of Rattus norvegicus with 8 samples.

Results

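The proteasome subunit genes were taken as the genes whose symbols begin with Psma, Psmb, Psmc or Psmd followed directly by a number, without Psmb8 and Psmb9 and without symbols that carry further letters. This gave 36 of the 12282 genes listed in at least 1 library: 8 of the alpha ring, 8 of the beta ring, 6 ATPases, 11 non-ATPase subunits and 3 assembly chaperones of the regulatory particle. They were measured by single-cell RNA sequencing of rat fracture callus, the tissue that forms around a fracture and heals it. Sprague Dawley rats had a closed fracture of 1 femur, and callus was taken at week 4 or week 12 after it, digested with collagenase A for 4 h and kept in a dish for 24 h, so the cells are those that survived this culture. Control rats were labelled untreated. Zoledronate rats had 0.3 mg/kg of this bisphosphonate, an inhibitor of bone-resorbing osteoclasts, under the skin each week for 12 weeks before fracture. The CGRP rats had zoledronate and calcitonin gene-related peptide, a neuropeptide of sensory nerves, and the magnesium rats had zoledronate and magnesium. The protocol text is the same for every library, the controls included. It names steel or magnesium-containing nails without tying a nail to a group, and the dose of CGRP and the number of animals in a library are unknown here. The series asks about magnesium and the healing of atypical femoral fractures, and each of the 4 treatments has 1 library at each week. With 1 library in each group, no difference can be tested against the spread between animals, and every interval below covers counting error alone.

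The proteasome is the protease that degrades proteins tagged with ubiquitin. Its barrel-shaped core particle has outer rings of alpha subunits, which form the gate, and inner rings of beta subunits, of which Psmb5, Psmb6 and Psmb7 carry the cutting sites. A regulatory particle caps the barrel: its ATPases Psmc1 to Psmc6 unfold the substrate, and its non-ATPase Psmd subunits hold ubiquitin receptors, scaffolds and the deubiquitinase Psmd14. In bone, osteoblasts and their precursors use the proteasome to turn over signalling proteins such as beta-catenin and Runx2, and proteasome inhibitors change bone formation.

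The subunits are needed in fixed proportions, and their genes are known to be driven together by factors such as Nrf1, which acts through antioxidant response elements. Promoter windows from RefSeq (build GRCr8) were found for 32 of the 36 genes and span 250 bases before to 50 after the start of each gene. Psma7, Psmd6, Psmd12 and Psmd14 had no entry. The 250 bases before the start are printed here for 4 members on which the results turn. Among the 34 members with enough counts to be compared, Psmb5 varied least and Psmd5 varied most. Psma1 was 1 of 30 members that were higher in mitotic barcodes of every library, and Psmb10 is the inducible subunit. Capitals mark a match to TGACNNNGC, the core of the antioxidant response element, in Psmb5, and to CCAAT in Psma1, with searches on both strands.
Psmb5, chr15:32047380-32047629, minus strand: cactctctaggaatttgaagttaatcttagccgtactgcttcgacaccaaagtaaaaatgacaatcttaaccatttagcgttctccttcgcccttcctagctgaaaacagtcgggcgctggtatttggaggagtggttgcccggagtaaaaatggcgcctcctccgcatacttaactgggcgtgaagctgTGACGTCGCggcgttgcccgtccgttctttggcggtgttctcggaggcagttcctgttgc
Psma1, chr1:177887858-177888107, minus strand: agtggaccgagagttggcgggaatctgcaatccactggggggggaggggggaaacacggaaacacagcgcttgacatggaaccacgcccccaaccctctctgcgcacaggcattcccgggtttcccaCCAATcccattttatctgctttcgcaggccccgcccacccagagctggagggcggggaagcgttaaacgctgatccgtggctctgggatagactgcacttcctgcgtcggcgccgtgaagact
Psmd5, chr3:38548491-38548740, minus strand: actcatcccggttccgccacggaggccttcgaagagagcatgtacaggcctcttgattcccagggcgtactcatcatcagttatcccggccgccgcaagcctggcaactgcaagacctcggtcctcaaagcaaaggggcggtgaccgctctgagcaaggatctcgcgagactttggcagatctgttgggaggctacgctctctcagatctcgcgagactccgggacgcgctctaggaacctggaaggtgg
Psmb10, chr19:50743293-50743542, minus strand: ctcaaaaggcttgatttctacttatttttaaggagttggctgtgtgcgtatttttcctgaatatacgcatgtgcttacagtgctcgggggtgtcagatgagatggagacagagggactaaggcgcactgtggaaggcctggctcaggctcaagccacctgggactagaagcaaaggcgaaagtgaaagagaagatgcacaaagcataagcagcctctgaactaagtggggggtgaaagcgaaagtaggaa
The Psmb5 match begins 60 bases before the start of the gene. TGACNNNGC was in 7 of the 32 windows (21.9%), those of Psma3, Psmb2, Psmb5, Psmb6, Psmd1, Psmd3 and Psmd9, against 12.1% of all 33469 windows. CCAAT was in 16 of 32 (50%) against 37.5% of all windows, and TTCNNNGAA was in 3 of 32 (9.38%) against 8.87%. In the Psmb2 window a CCAAT match and a TGACNNNGC match overlap. The printed Psmd5 and Psmb10 windows hold none of the 3 motifs. These matches describe letters in a window and are not measured binding sites.

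Each library gave between 139656712 and 159685281 UMIs, deduplicated transcript counts, from 6809 to 10370 cell barcodes with at least 5000 UMIs. Levels are given as UMIs in 1000000 UMIs of the library (CPM), summed over those barcodes. Across the libraries 535 of the 69087 distinct barcodes occurred in more than 1, with 13 to 31 shared by a pair of libraries. All 10 fibroblastic markers were listed in each library, with a summed level from 37324 CPM in control week 12 to 56156 CPM in control week 4. Of 10 macrophage markers, 4 to 6 were listed, summing to 11.4 to 21.9 CPM, and Adgre1, Cd163, C1qa and C1qb were listed in no library. Of 10 endothelial markers, 4 to 7 were listed, summing to 37.1 to 52.1 CPM with most of it from Egfl7, while Cdh5, Emcn and Cldn5 were listed in none. Of 6 osteoclast markers, 2 to 3 were listed, summing to 58.4 CPM in control week 12 to 162.9 CPM in magnesium week 4 with most of it from Ctsk, while Ocstamp, Dcstamp and Calcr were listed in none. Lymphocyte markers summed to at most 2.48 CPM, and 0 of 6 erythroid markers were listed. Barcodes with at least 2 UMIs of 12 mitotic genes after each was thinned to 5000 UMIs, called mitotic here, made up 32.1% of control week 4, 41.7% of control week 12, 21.0% of zoledronate week 4, 6.36% of zoledronate week 12, 49.2% of CGRP week 4, 16.9% of CGRP week 12, 23.5% of magnesium week 4 and 17.2% of magnesium week 12. Each gene list and the members themselves were measured on summed RNA, in which fewer cells of a type and less RNA per cell cannot be told apart.

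Together the 36 genes took between 0.519% and 0.657% of a library's UMIs. Their summed level was 5944 CPM in control week 4, 6015 in control week 12, 5689 in zoledronate week 4, 5193 in zoledronate week 12, 6567 in CGRP week 4, 5404 in CGRP week 12, 5774 in magnesium week 4 and 5824 in magnesium week 12. CGRP week 4 was the highest and zoledronate week 12 the lowest library, and the 95% Poisson intervals of the highest, 6554 to 6580 CPM, and the lowest, 5182 to 5204 CPM, do not meet any other library's value. The beta ring summed to between 1723 and 1902 CPM and was the flattest group, while the non-ATPase subunits ranged from 1199 CPM in zoledronate week 12 to 1638 CPM in CGRP week 4. The alpha ring ranged from 1363 CPM in zoledronate week 12 to 1834 CPM in CGRP week 4, and the ATPase ring from 821 CPM to 1067 CPM in the same 2 libraries. The beta ring held 33.2% of all member UMIs in zoledronate week 12 and 29.0% in CGRP week 4, with the other libraries between these.

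**Figure D1:**
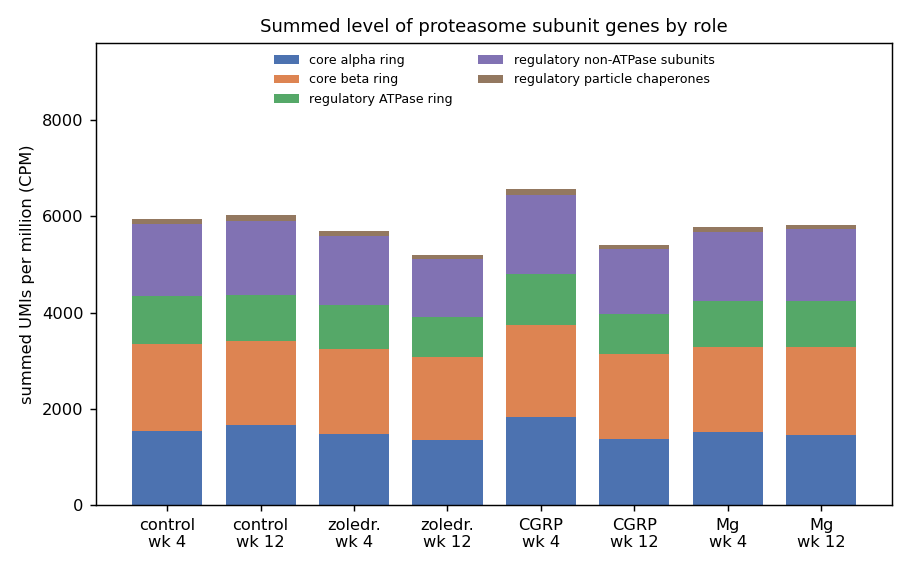
Summed level of the proteasome subunit genes in CPM (vertical axis, from 0) in each of the 8 libraries (horizontal axis; zoledr. is zoledronate, Mg is magnesium), stacked by role. The whole bar runs from 5193 CPM in zoledronate week 12 to 6567 CPM in CGRP week 4, and the beta ring segment changes least in proportion.

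Of the 36 genes, 35 were listed in every library and 34 had a mean of at least 5 CPM, which is the limit for being compared. Psma8, an alpha subunit known from the testis where it takes the place of Psma7, was listed in 5 libraries at no more than 0.16 CPM. Psmd10, also called gankyrin, a chaperone that holds the ATPase Psmc4 during assembly, lay between 1.61 and 3.23 CPM. The other 34 had means from 8.55 CPM for Psmb6 to 471 CPM for Psma7. Levels of different genes are not compared here as amounts of transcript. Near copies of 15 members are named in RefSeq, 39 in all. Psmb6 is among them, with 3 near copies, so its level is uncertain, as is that of Psma3, for which RefSeq gives the separately listed symbol Psma3l as a synonym. The same limit holds for Psmb3, with 10 near copies, the most of any member, for Psma2, with 2, and for Psmb4, with 1. It holds too for Psma6, with 5, for Psma7 and Psmc4, with 3 each, and for Psmb7, Psmc6 and Psmd8, with 2 each. The remaining members with a near copy are Psma5, Psmd1, Psmd12 and Psmd14, with 1 each.

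Over the 8 libraries the members varied little. The ratio of a member's highest to its lowest level had a median of 1.36, against 1.45 over the 7225 genes with a mean of at least 5 CPM. It was under 1.5 for 28 of 34 members (82.4%) and for 55.8% of all those genes, and it reached 2 for 0 members and for 18.5% of all genes. In CGRP week 4, 21 of the 34 had their highest level, where 18.1% of all genes did, and in zoledronate week 12, 26 of the 34 had their lowest level, where 29.6% of all genes did. A further 9 members were highest in control week 12, the library in which 27.6% of all genes were highest.

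**Figure D2:**
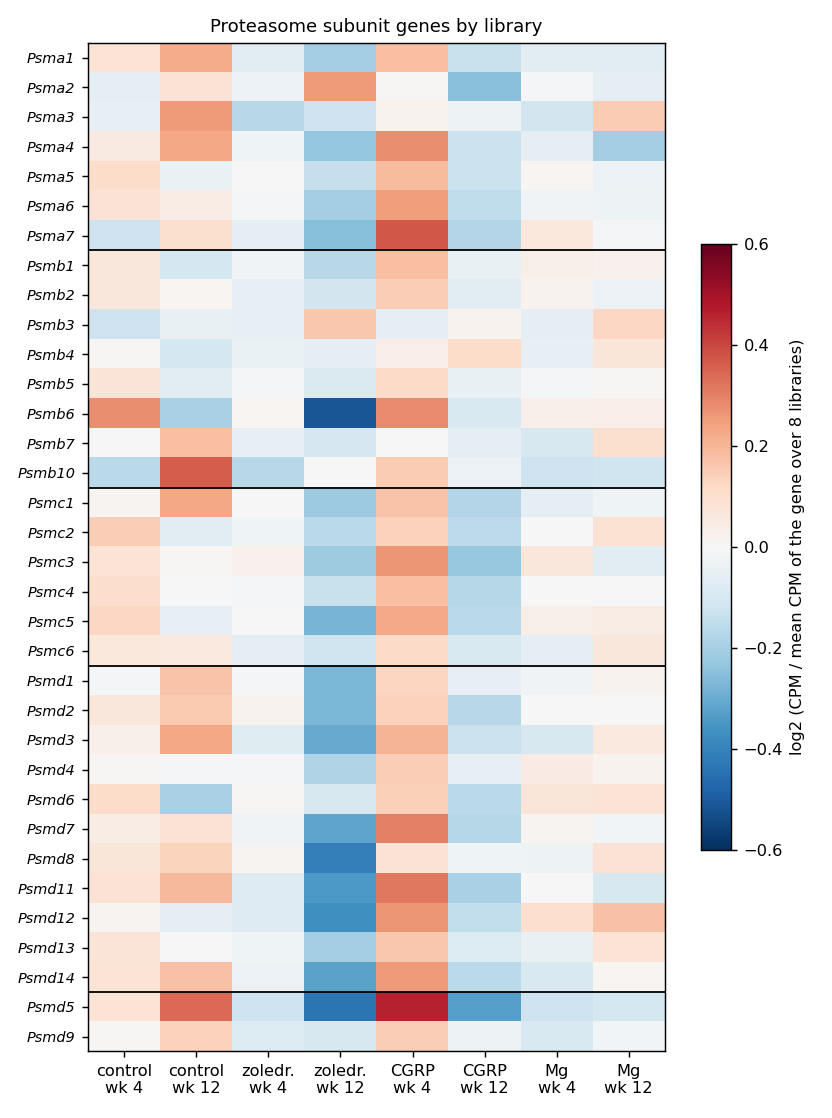
Level of 34 proteasome subunit genes (rows, separated by role) in the 8 libraries (columns), as log2 of the CPM over the gene's own mean CPM, with red above and blue below the mean. The CGRP week 4 column is red in most rows and the zoledronate week 12 column blue in most, with Psma2 and Psmb3 the opposite way in the latter.

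The 3 steadiest members were Psmb5, Psmb4 and Psmc6. Psmb5, the chymotrypsin-like site and the main target of the drug bortezomib, was measured at 471 CPM in control week 4, 427 in control week 12, 444 in zoledronate week 4, 421 in zoledronate week 12, 484 in CGRP week 4, 433 in CGRP week 12, 444 in magnesium week 4 and 449.6 in magnesium week 12. The highest was 1.15 times the lowest. Psmb4, a beta subunit without a cutting site, had 228 and 211 CPM in control, 221 and 218 in zoledronate, 234 and 245 in CGRP, and 219 and 238 in magnesium, at week 4 and week 12 in that order. Psmc6, an ATPase of the unfolding ring, had 192 and 191 CPM in control, 176 and 169 in zoledronate, 198 and 172 in CGRP, and 177 and 192 in magnesium. Psmb5 and Psmc6 were lowest in zoledronate week 12 and highest in CGRP week 4, while Psmb4 was lowest in control week 12 and highest in CGRP week 12.

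The 3 most variable of the 34 members compared were Psmd5, Psmb6 and Psmd11. Psmd5, a chaperone that holds ATPase subunits while the base of the regulatory particle is built, had 44.6 CPM in control week 4, 53.4 in control week 12, 38.7 in zoledronate week 4, 31.1 in zoledronate week 12, 58.2 in CGRP week 4, 33.5 in CGRP week 12, 38.7 in magnesium week 4 and 39.2 in magnesium week 12. Its highest level was 1.87 times its lowest, and CGRP week 4 and both control libraries were the 3 highest. Psmb6, the caspase-like site, had 10.4 and 7.46 CPM in control, 8.62 and 5.995 in zoledronate, 10.4 and 8.02 in CGRP, and 8.72 and 8.80 in magnesium at the 2 weeks. It rested on 935 to 1640 UMIs in a library, and its 95% interval in zoledronate week 12 was 5.62 to 6.39 CPM. Psmd11, a lid subunit that clamps the regulatory to the core particle, had 60.3 and 65.0 CPM in control, 53.8 and 44.8 in zoledronate, 70.6 and 49.6 in CGRP, and 56.9 and 53.1 in magnesium. Psmd5 and Psmd11 shared their highest library, CGRP week 4, and their lowest, zoledronate week 12.

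Psmb7, the trypsin-like site, had 119 and 135 CPM in control, 115 and 111 in zoledronate, 119 and 114 in CGRP, and 111 and 127 in magnesium. Psmb10, which takes the place of Psmb7 in the immunoproteasome that interferon induces, had 60.3 and 87.0 CPM in control, 60.2 and 67.7 in zoledronate, 74.98 and 65.9 in CGRP, and 62.0 and 62.1 in magnesium. Of the UMIs of the pair, Psmb10 took 32.9% in magnesium week 12, the lowest share, and 39.3% in control week 12, the highest, with exact binomial 95% intervals of 32.3% to 33.4% and 38.7% to 39.8%. The other inducible sites were close to the floor of the comparison: Psmb8 lay between 0.87 CPM in zoledronate week 12 and 3.86 CPM in CGRP week 12, and Psmb9 between 1.37 and 7.03 CPM in the same 2 libraries. CGRP week 12 and zoledronate week 12 were also the 2 libraries with the highest macrophage marker sums, 21.6 and 21.9 CPM. Most of each sum was Cd14, at 12.8 and 15.2 CPM, and any part of macrophages in Psmb8 and Psmb9 was not tested.

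For each comparison of 2 libraries, a gene was compared where both libraries listed it, with at least 50 UMIs over the 2 and a mean of at least 5 CPM. The difference is log2 of the ratio of CPM + 1, and a gene is counted as higher or lower, or as passing, from a log2 ratio of 0.32 in that direction on, which is 25% higher or 20% lower. The counting error of a member's log2 ratio, as the half-width of its 95% interval, had a median between 0.026 and 0.028 in the 10 comparisons. A count of members is set beside the percentage of all genes compared that passed the same fold in the same direction. The treatment comparisons of 1 week share the zoledronate library, and the comparisons of weeks reuse the libraries of the treatment comparisons, so they are not independent of each other.

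**Figure D3:**
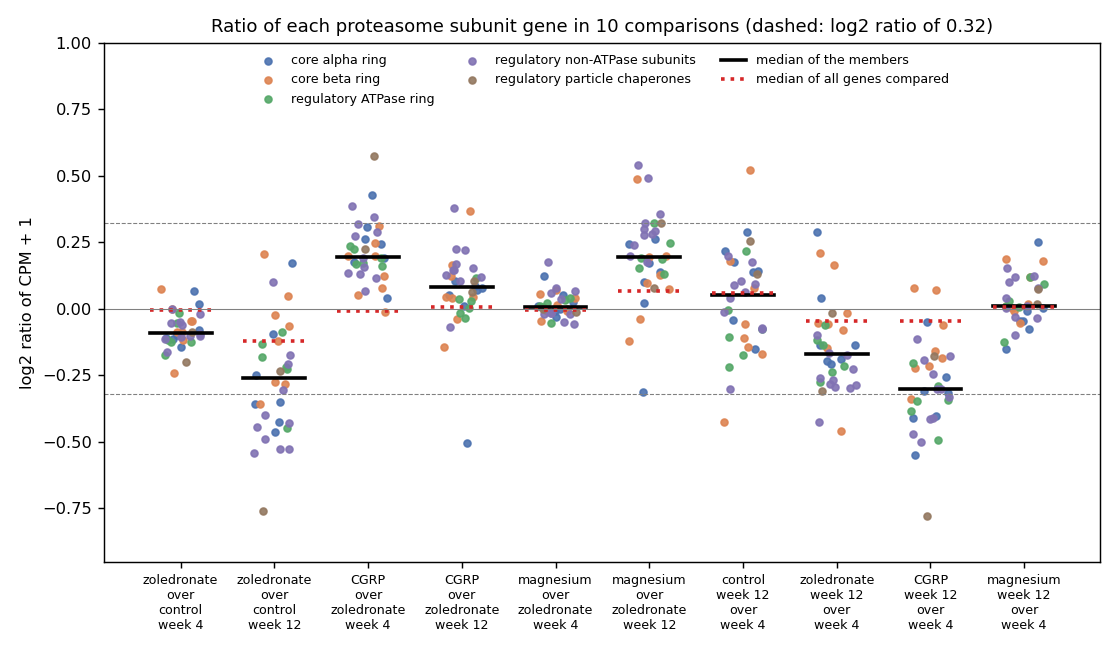
Log2 ratio of CPM + 1 (vertical axis) of each of 34 proteasome subunit genes (points, coloured by role) in the 10 comparisons of 2 libraries (horizontal axis), with the median of the members (black bar), the median of all genes compared (red dotted bar) and lines at a log2 ratio of 0.32 in each direction (dashed). The members lie lowest in zoledronate over control at week 12 and in CGRP week 12 over week 4, with medians of -0.26 and -0.30, and highest in CGRP over zoledronate at week 4 and magnesium over zoledronate at week 12.

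Zoledronate was compared with control to see how callus cells differ after bisphosphonate treatment. At week 4, 30 of the 34 members were below 0 in log2 ratio, but none passed: 0 members were higher, beside 4.6% of all genes, and 0 lower, beside 4.88%. Of all genes, 48.6% were above 0 in this comparison. The median member was at -0.09 against -0.005 for all genes, and the lowest was Psmb6 at -0.24. At week 12 the members were lower in zoledronate by a median of -0.26, and 14 of 34 passed lower (41.2%), beside 28.7% of all genes, while 0 members passed higher, beside 12.7%. Psmd5 was at -0.76 (95% interval -0.81 to -0.71), Psmd8, a lid subunit, at -0.54, Psmd11 at -0.53, Psmd3, a lid scaffold, at -0.53, and Psmd14, the deubiquitinase, at -0.49. The other 9 were Psma1, Psma3, Psma4, Psma7, Psmb10, Psmc1, Psmd1, Psmd2 and Psmd7.

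The roles differed in this week 12 comparison. The median log2 ratio was -0.43 for the 11 non-ATPase subunits, of which 7 passed lower, and -0.35 for the 7 alpha subunits compared, with 4 passing. It was -0.20 for the 6 ATPases, with 1 passing, and -0.09 for the 8 beta subunits, with 1 passing. The 2 chaperones compared, Psmd5 and Psmd9, had the lowest median, -0.50, with 1 passing. Psmb3, a beta subunit without a cutting site, was at 0.21 and Psma2 at 0.17, on the other side. Psmd14 shows the pattern of most members, with 89.5 and 95.4 CPM in control, 82.6 and 67.8 in zoledronate, 101 and 75.6 in CGRP, and 79.3 and 85.1 in magnesium.

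The size of the week 12 difference depends on scaling and on the mitotic barcodes. The median of all genes was itself at -0.12, and the members' median minus that of all genes was -0.14. With TMM factors the 2 medians were -0.15 and -0.01, and 8 members passed lower (23.5%), beside 20.3% of all genes. With DESeq2 size factors they were -0.13 and 0.01, and 6 members passed lower (17.6%), beside 18.9% of all genes, and 1 higher, beside 19.8%. The members' median minus that of all genes was again -0.14 under both. Without mitotic barcodes, which were 41.7% of the control and 6.36% of the zoledronate library, the members' median was -0.12, the median of all genes -0.05, and 5 members passed lower (14.7%), beside 17.9% of all genes. The count of members was thus near or below the share of all genes under these 3 settings. The summed fibroblastic markers also moved between these libraries, from 37324 CPM in control to 53820 CPM in zoledronate. The listed osteoclast markers, mostly Ctsk, went from 58.4 to 141.4 CPM. The part of either marker list in the result was not tested.

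CGRP added to zoledronate was compared with zoledronate alone. At week 4, 33 of the 34 members were above 0, beside 48.9% of all genes, with Psmb3 at -0.01 the exception. The median was 0.19 against -0.01 for all genes. The 4 members that passed higher (11.8%) stand beside 11.7% of all genes, so the count past the fold is at the background as scaled by CPM, and 0 passed lower, beside 14.2%. Psmd5 was at 0.57, Psma7, an alpha subunit, at 0.43, Psmd11 at 0.39 and Psmd12, a lid subunit, at 0.34. Psma7 had 432 and 503 CPM in control, 452 and 394 in zoledronate, 609 and 416 in CGRP, and 492 and 467 in magnesium, so that CGRP week 4 stood above the other 7 libraries. The count was 7 (20.6%) with TMM factors, beside 13.0% of all genes, with thinned barcodes, beside 13.0%, and without ribosomal protein genes in the totals, beside 13.4%. It was 8 (23.5%) with DESeq2 size factors, beside 13.7%, and 3 (8.82%) without mitotic barcodes, beside 7.05%. Mitotic barcodes were 49.2% of the CGRP and 21.0% of the zoledronate library, and without them the median was 0.15 and 33 members were above 0. The summed fibroblastic markers were 41604 CPM in CGRP and 55938 CPM in zoledronate, the listed osteoclast markers, mostly Ctsk, 59.1 and 136.6 CPM, and their part in the result was not tested.

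At week 12 the members were 0.08 higher in CGRP at the median, with 28 of 34 above 0, beside 50.9% of all genes. Psmd8, at 0.38, and Psmb6, at 0.37 (95% interval 0.24 to 0.49), passed higher, beside 13.5% of all genes, and Psma2 at -0.50 passed lower, beside 13.1%. Psma2, an alpha subunit of the gate, had 139 and 153 CPM in control, 141 and 173 in zoledronate, 145 and 121 in CGRP, and 143 and 139 in magnesium. It was highest in zoledronate week 12, the library in which 26 other members were lowest, and lowest in CGRP week 12. Without mitotic barcodes the median was 0.03 and 22 members were above 0.

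Magnesium added to zoledronate was compared with zoledronate alone, which is the question named in the series' title. At week 4 no member passed: 0 were higher, beside 1.65% of all genes, and 0 lower, beside 1.72%, with a median of 0.01 and a range from -0.06 to 0.18. At week 12, 31 of 34 were above 0, beside 59.6% of all genes, and the median was 0.20 against 0.07 for all genes. Of the members, 6 passed higher (17.6%), beside 18.6% of all genes, so this count too is at the background, with 0 lower, beside 10.1%. The 6 were Psmd12 at 0.54, Psmd8 and Psmb6 at 0.49, Psmd3 at 0.35, and Psmd5 and Psmd14 at 0.32. Psmd12 had 101 and 96.0 CPM in control, 94.7 and 77.4 in zoledronate, 120.4 and 90.4 in CGRP, and 107 and 113 in magnesium. Psmd8 had 171 and 178 CPM in control, 164 and 122 in zoledronate, 172 and 159 in CGRP, and 159 and 173 in magnesium, so that zoledronate week 12 stood below the other 7 libraries, which lay between 159 and 178 CPM. With TMM factors, with DESeq2 size factors and without mitotic barcodes, 3 members passed higher (8.82%), beside 14.8%, 14.5% and 15.6% of all genes, and 1 lower, beside 12.6%, 12.8% and 10.4%. Mitotic barcodes were 17.2% of the magnesium and 6.36% of the zoledronate library. The non-ATPase subunits had the highest median by role, 0.29, with all 11 above 0, and the beta ring the lowest, 0.11.

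No member passed at both weeks in any of the 3 treatment comparisons. In direction alone, 28 members were lower in zoledronate than in control at both weeks, 28 were higher in CGRP than in zoledronate at both weeks, and 17 were higher in magnesium than in zoledronate at both weeks, with 16 on opposite sides. The shares of all genes doing so at both weeks were not computed, so these counts stand without a background. At week 4 and week 12 taken singly, 48.6% and 36.7% of all genes were above 0 in zoledronate over control. The shares were 48.9% and 50.9% in CGRP over zoledronate, and 47.1% and 59.6% in magnesium over zoledronate.

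Week 12 was also compared with week 4 within each treatment. In control the median was 0.05 against 0.06 for all genes, with 18 members above 0 and 16 below, beside 58.0% of all genes above 0. The members' median turned to -0.01 with TMM factors, DESeq2 size factors or totals without ribosomal protein genes, and to -0.06 without mitotic barcodes. Psmb10 was higher at week 12 by 0.52, 1 member beside 20% of all genes, and Psmb6 was lower at -0.43, 1 member beside 11.2%. In zoledronate the median was -0.17, with 30 of 34 below 0, where 41.6% of all genes were above 0. Psmb6 at -0.46 and Psmd8 at -0.42 passed lower, beside 15.2% of all genes, and 0 passed higher, beside 8.87%.

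In CGRP the median was -0.30 against -0.04 for all genes, and 32 of 34 members were lower at week 12, with Psmb3 at 0.08 and Psmb4 at 0.07 the exceptions. Among all genes, 44.6% were above 0. Of the members, 14 passed lower (41.2%), beside 19.7% of all genes, and 0 higher, beside 14.6%. Psmd5 was at -0.78 (95% interval -0.83 to -0.73), Psma7 at -0.55, Psmd11 at -0.50, Psmc3, an ATPase, at -0.49 and Psmd7, the partner of Psmd14 in the lid, at -0.47. Psmc3 had 254 and 241 CPM in control, 244 and 207 in zoledronate, 288 and 205 in CGRP, and 251 and 230.2 in magnesium. The count was 10 (29.4%) with TMM factors, beside 17.4% of all genes, and with DESeq2 size factors, beside 17.8%. It was 11 (32.4%) without mitotic barcodes, beside 13.8%; these barcodes were 49.2% of the library at week 4 and 16.9% at week 12. The fibroblastic markers summed to 41604 CPM at week 4 and 52552 CPM at week 12 and the listed osteoclast markers, mostly Ctsk, to 59.1 and 147.7 CPM, and their part was not tested. In magnesium the median was 0.01, with a range from -0.15 to 0.25, and 0 members passed in either direction, beside 12.6% of all genes higher and 11.1% lower.

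Of 43 symbols looked up for other genes of the pathway, some of them alternative names of the same gene, 38 were listed in the files. In most comparisons 36 were compared. Among the activators, Psme1, a subunit of the cap that interferon induces, had 71.985 and 55.1 CPM in control, 63.9 and 59.8 in zoledronate, 84.1 and 93.9 in CGRP, and 62.5 and 82.5 in magnesium. It passed as higher in CGRP than in zoledronate at both weeks, with log2 ratios of 0.39 and 0.64, and in magnesium than in zoledronate at week 12, with 0.46. Psme2, its partner, lay between 37.7 CPM in control week 12 and 55.2 CPM in CGRP week 4. Pomp, the chaperone that closes the core particle's assembly, lay between 455 CPM in control week 4 and 633 CPM in control week 12.

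In zoledronate against control at week 12, 11 of these 36 genes passed lower, beside 28.7% of all genes, and 3 higher, beside 12.7%. Their median of -0.11 was close to the -0.12 of all genes, so these counts are near the background. The lower ones were led by Uba1 and Uba6, the enzymes that activate ubiquitin, both at -0.73, and by Usp14, a deubiquitinase on the regulatory particle, at -0.58. Among the higher ones were Psmg4, a chaperone of alpha ring assembly, at 0.57, and Ngly1, which removes sugars from proteins and activates Nrf1, at 0.34. At week 4 the same comparison had 1 gene higher, beside 4.6% of all genes, and 0 lower, beside 4.88%. The 1 gene was Ubqln2, a shuttle for ubiquitin-tagged proteins, at 0.55. In CGRP against zoledronate, 2 were higher at week 4, Uchl5 at 0.43 and Psme1, beside 11.7% of all genes. At week 12 Psme1 and the ubiquitin gene Ubb at 0.42 were higher, beside 13.5%, while Ubqln2 at -0.90 and Mafk at -0.36 were lower, beside 13.1%. In magnesium against zoledronate 0 passed at week 4, beside 1.65% higher and 1.72% lower. At week 12 Psme1 was among the higher genes, beside 18.6% of all genes, and Ubqln2 at -0.72 was lower, beside 10.1%.

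Uba6 was higher at week 12 than at week 4 under each treatment: it had 18.1 and 52.2 CPM in control, 20.5 and 31.2 in zoledronate, 21.7 and 30.0 in CGRP, and 21.97 and 28.0 in magnesium. The log2 ratios were 1.48, 0.58, 0.45 and 0.33, each passing, the last of them just past the limit of 0.32. The share of all genes that passed higher under each treatment was not computed, so this result has no background. In control, 8 of the 36 genes were higher at week 12, beside 20% of all genes, also with Mafk, a small Maf partner of Nrf1 and Nrf2, at 1.06 and Ubqln2 at 1.01. A further 6 were lower, beside 11.2%, led by Ngly1 at -0.65, Psme2 at -0.54 and Psmg4 at -0.47. In zoledronate 3 were higher, beside 8.87%, and 1 lower, beside 15.2%. In CGRP 2 were higher, beside 14.6%, and 4 lower, beside 19.7%, with Uchl5 at -0.75 the lowest. In magnesium 3 were higher, beside 12.6%, and 1 lower, beside 11.1%. Nfe2l2, which encodes Nrf2, lay between 104 CPM in control week 12 and 131 CPM in magnesium week 12, and the shuttle Sqstm1 between 115 CPM in control week 12 and 156 CPM in magnesium week 12. Nfe2l1, which encodes Nrf1, was not analysed here.

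Within each library, mitotic barcodes carried higher levels of proteasome transcripts than the others. The summed level was 6369 against 5708 CPM in control week 4, 6758 against 5431 in control week 12, 6300 against 5499 in zoledronate week 4, 5890 against 5135 in zoledronate week 12, 6956 against 6162 in CGRP week 4, 6163 against 5207 in CGRP week 12, 6272 against 5598 in magnesium week 4 and 6578 against 5637 in magnesium week 12. The mitotic barcodes were higher in 8 of 8 libraries. The median log2 ratio of the 34 members was between 0.18 and 0.30, against 0.07 to 0.13 for all genes compared. Of the 34 members, 3 passed higher in control week 4, beside 24.1% of all genes, 7 in zoledronate week 4, beside 25.9%, 4 in CGRP week 4, beside 23.8%, and 3 in magnesium week 4, beside 23.4%. At week 12 it was 16 (47.1%) in control, beside 29%, 9 (26.5%) in zoledronate, beside 27.8%, 15 (44.1%) in CGRP, beside 28.9%, and 12 (35.3%) in magnesium, beside 26%. The share of members passing was above that of all genes in control, CGRP and magnesium at week 12 and below it in the other 5 libraries. In the library order control, zoledronate, CGRP, magnesium, 0 members passed lower at week 4, beside 8.72%, 10.4%, 8.65% and 9.91% of all genes, and 0 at week 12, beside 10.4%, 11.3%, 9.03% and 9.23%.

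Members differed in this ratio. Psmd5 was 0.74 to 1.03 higher in mitotic barcodes, Psmd14 0.41 to 0.55 and Psma1 0.37 to 0.52, each passing in 8 of 8 libraries. At the other end Psmb4 was lower in 7 of 8 libraries, between -0.16 and 0.04, and Psmb3 in 5 of 8, between -0.11 and 0.08. In all, 30 of 34 members were higher in mitotic barcodes in all 8 libraries. Among all genes compared, 59.3% to 65.3% were above 0 in a single library. The shares of all genes above 0 or passing in all 8 were not computed, so these counts have no background. Psmb5 was 0.03 to 0.17 higher. The class is a range of a score and not a cell type: 130 to 486 barcodes of a library sat exactly at the limit of 2 UMIs and 834 to 1356 had 1 UMI. Mitotic barcodes were also deeper, with a median of 16701 to 23775 UMIs against 12120 to 19723 for the others, and the part of depth in the ratio was not tested.

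**Figure D4:**
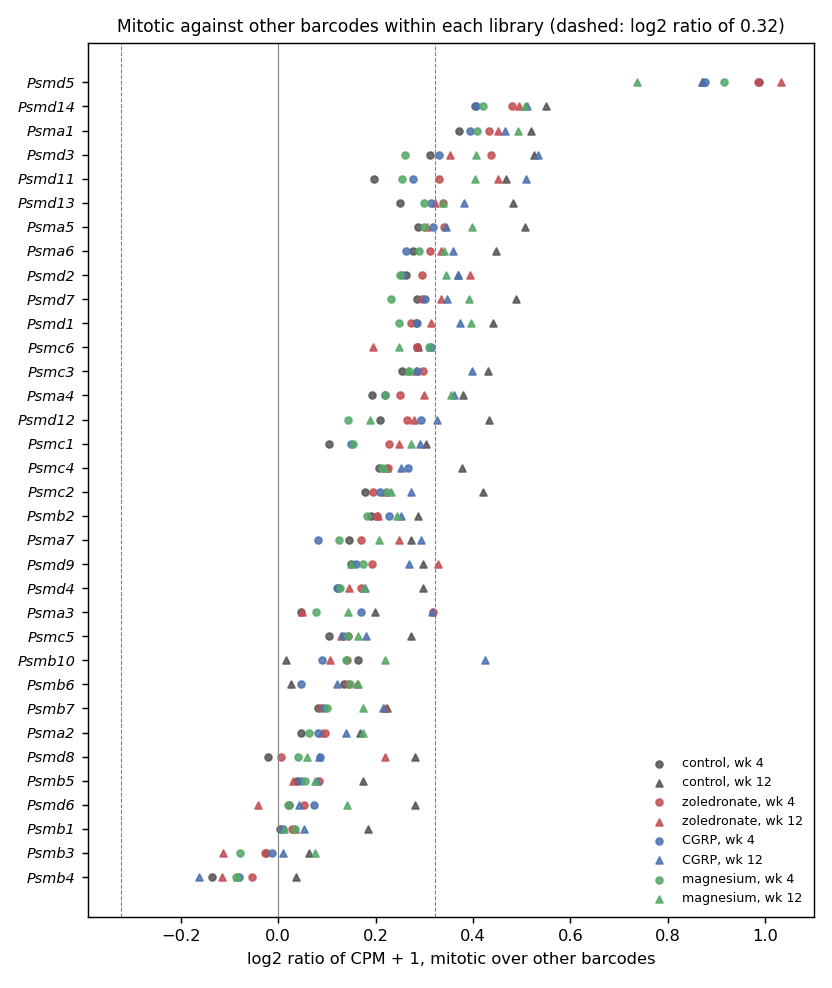
Log2 ratio of CPM + 1 between mitotic and other barcodes of the same library (horizontal axis) for each of 34 members (rows, ordered by the median), with 1 point for each library (colour: treatment, circle: week 4, triangle: week 12) and lines at a log2 ratio of 0.32 in each direction dashed. Psmd5 stands apart at 0.74 to 1.03, and the beta subunits Psmb3 and Psmb4 lie around or below 0.

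Single barcodes were compared after each had been thinned to 5000 UMIs, which removes differences in depth. The mean number of proteasome UMIs of a thinned barcode was 29.9 in control week 4, 30.3 in control week 12, 28.9 in zoledronate week 4, 26.5 in zoledronate week 12, 33.5 in CGRP week 4, 27.7 in CGRP week 12, 29.2 in magnesium week 4 and 29.7 in magnesium week 12. Control week 12 was the widest, with an SD of 10.5 UMIs and a variance 3.63 times the mean, where the other 7 libraries had 1.66 to 2.28 times. Its 5th to 95th percentile ran from 13 to 47 UMIs, against 19 to 42 in control week 4, although the 2 means were nearly the same. No barcode in any library had 0 proteasome UMIs after thinning. Single members were found in very different shares of thinned barcodes: Psma7 in 85.1% to 93.7%, Psmb5 in 85.8% to 91.1%, Psmd5 in 14.7% to 24.9% and Psmb6 in 3.20% to 5.38%.

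**Figure D5:**
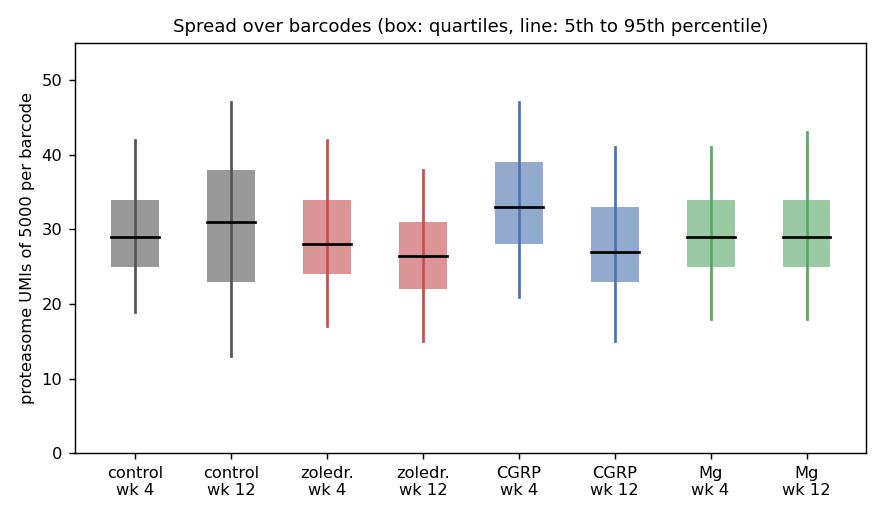
Proteasome UMIs of a barcode thinned to 5000 UMIs (vertical axis) in each library (horizontal axis; zoledr. is zoledronate, Mg is magnesium), with the quartiles as a box, the median as a black line and the 5th to 95th percentile as a thin line. The control week 12 box and line are the longest, reaching down to 13 UMIs, and CGRP week 4 has the highest median at 33 UMIs.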

How the data were processed

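The files that the authors deposited hold whole-number counts of UMIs for each gene and cell barcode, 1 file for each of the 8 libraries. Per the series' design text, libraries were made from 10000 cells with a droplet kit of 10X Genomics. The submitters' processing notes name STAR and the genome build Rnor_6.0. The gene annotation, the calling of cells and the filters were not stated in the sources used here. The files list genes found in at least 5 barcodes, barcodes have at least 500 genes, and 0 mitochondrial genes are listed.

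Of 69624 barcodes, 65208 with at least 5000 UMIs were used. Doublets were not called. Counts were summed over barcodes and divided by the library total, times 1000000 (CPM). Log2 ratios used CPM + 1, and a gene was compared where both libraries listed it, with at least 50 UMIs over the 2 and a mean of at least 5 CPM. No test was run, since each group is 1 library. Levels have exact Poisson 95% intervals and shares exact Clopper-Pearson 95% intervals. They cover counting error only. The ratio computation was tested on simulated counts with known changes. Scaling factors of edgeR 4.0.16 (TMM) and DESeq2 1.42.0 were tried as alternatives, with no model fitted. Other work was done in Python 3.11.15 with numpy 2.4.6, scipy 1.17.1 and pandas 2.3.3.

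The members and the gene lists were chosen with earlier results of these data known. Some genes of the pathway list are counted but not reported by name here. Genes named with values are Psmb5, Psmb6, Psmb7, Psmb10 and Psmd14, the 3 most and 3 least variable members, up to 5 members in each direction of a comparison past the limit, a fixed set of pathway genes, and up to 3 more of the pathway in each direction. Other genes were named after their values were seen: Psma1, Psmb3 and the remaining members past the limit in zoledronate against control at week 12.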

Additional observations from a re-analysis of the deposited data

Results flagged for a closer look

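As scaled by CPM, the median change from week 4 to week 12 lay on different sides of 0 in different treatments, and this difference was not tested. The median log2 ratio of the proteasome subunit genes was 0.053 in control, with 18 of 34 members above 0 and a median of 0.058 over all genes, -0.17 in zoledronate, with 4 above 0, and -0.30 in CGRP, with 2 above 0. Above 0 were 58.0% of all genes in control, 41.6% in zoledronate and 44.6% in CGRP. In magnesium the median of the members was 0.01, within the median counting error of a single member's log2 ratio. The control value turned negative under each of 3 other scalings, to between -0.011 and -0.0093, so its sign depends on the scaling and no treatment had a rise that held under each scaling, while the zoledronate and CGRP values stayed below 0 under those scalings. The share of mitotic barcodes went from 32.1% to 41.7% in control, from 21.0% to 6.36% in zoledronate, from 49.2% to 16.9% in CGRP and from 23.5% to 17.2% in magnesium. Without mitotic barcodes the medians were -0.059 in control, -0.13 in zoledronate and -0.24 in CGRP.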

How the results depend on the processing

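No paired analysis was possible because each group is 1 library. Moves were set against the median counting error of a single member's log2 ratio in each comparison. This limit is not the counting error of a median of members. Of 100 alternative values of the 10 median log2 ratios, 80 moved by less than the limit and 20 by more. Of the latter, 5 changed sign: 4 in control between weeks, and that of magnesium between weeks without ribosomal protein genes, whose main value was within the limit. Using each deposited barcode, barcodes with at least 10000 UMIs, thinned barcodes, other filters or a pseudocount of 0.1 moved none of the medians beyond the limit. For zoledronate over control at week 12 the median was -0.26, and it was -0.15 with TMM factors, -0.13 with DESeq2 size factors and -0.12 without mitotic barcodes, with 8, 7 and 5 members apart in place of 14. For CGRP over zoledronate it was 0.23 with DESeq2 size factors and 0.15 without mitotic barcodes at week 4, and 0.15 without ribosomal protein genes in the totals and 0.031 without mitotic barcodes at week 12. The week 4 count of 4 became 7 (TMM, thinned barcodes, totals without ribosomal protein genes) and 8 (DESeq2). For magnesium over zoledronate at week 12 the median was 0.14 with TMM and 0.13 with DESeq2. Week 12 over week 4 in control turned to -0.011 with TMM, -0.010 with DESeq2, -0.0093 without ribosomal protein genes and -0.059 without mitotic barcodes, the last with 4 members apart in place of 2. In zoledronate it was -0.12 with TMM, -0.10 with DESeq2 and -0.13 without mitotic barcodes, with 1 member in place of 2 in thinned barcodes. In CGRP it was -0.27 with TMM, -0.28 with DESeq2 and -0.24 without mitotic barcodes, and in magnesium -0.019 without ribosomal protein genes, with 1 member in place of 0 without the filter. At 1.5-fold the counts of 14 became 1, Psmd5 both times, beside 12.2% of all genes lower in zoledronate than in control at week 12 and 7.44% lower at week 12 in CGRP, and 0 members passed in the other 8 comparisons. The cause of these moves was not tested.

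The summed level differed with the UMIs of a barcode, in the order control, zoledronate, CGRP, magnesium with week 4 first. It was 5089, 6031, 5815, 5755, 6831, 5769, 5667 and 6205 CPM at 5000 to 10000 UMIs, and 6147, 6132, 5912, 5436, 6936, 5637, 5987 and 6098 CPM at 10000 to 20000. It was 5882, 5851, 5539, 4661, 6275, 4686, 5659 and 5623 CPM at 20000 to 40000, and 5292, 5372, 4916, 5152, 5654, 5164, 4916 and 4798 CPM over 40000, a range that held 2 to 135 barcodes of a library. With mitotic barcodes taken from 1 UMI on, the median ratio of mitotic to other barcodes moved to 0.17 in zoledronate week 4, 0.14 in zoledronate week 12, 0.22 in CGRP week 12 and 0.18 in magnesium week 12, and with at least 4 UMIs it moved in 0 libraries.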

Other observations

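Barcodes with few proteasome transcripts were looked at after the wide spread in control week 12 had been seen, with a limit chosen at that point: at most 15 proteasome UMIs of 5000. They were 1.395% of barcodes in control week 4, 9.17% in control week 12, 2.63% in zoledronate week 4, 5.91% in zoledronate week 12, 1.02% in CGRP week 4, 5.46% in CGRP week 12, 1.91% in magnesium week 4 and 2.46% in magnesium week 12. The exact binomial 95% interval of the control week 12 share was 8.54% to 9.83%, which covers counting of barcodes within 1 library alone. Because the limit was chosen with the spread of this library known, its highest share describes that spread again and is no further result. Near the limit, 24 to 123 barcodes of a library had exactly 15 UMIs. These barcodes were not shallow: their median depth was 17276 UMIs in control week 12, against 17236 for the rest, and above the rest in the other 7 libraries.

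Of 3644 genes with a mean of at least 20 CPM, 1401 were lower and 887 higher in the barcodes with few proteasome transcripts in all 8 libraries. Ranked by the smallest difference over the 8 libraries, the lower side was led by Ube2c, a ubiquitin-conjugating enzyme of mitosis, at -2.61 to -1.39 in log2 ratio, Msn, which links the membrane to actin, at -2.61 to -1.25, the tubulin Tubb4b at -2.05 to -1.25, the tubulin regulator Stmn1 at -2.35 to -1.20 and Kpna2, a nuclear import factor, at -1.75 to -1.12. Fdps, the sterol pathway enzyme that zoledronate inhibits, was among the next, at -2.40 to -1.09, and was lower in the control libraries too. The higher side was led by the secreted factor Sema3c at 0.75 to 1.07, the thyroid hormone receptor Thrb at 0.70 to 1.44, the Wnt inhibitor Dkk3 at 0.65 to 1.24, the protease Pcsk6 at 0.64 to 1.35 and the channel Pkd2 at 0.64 to 1.17. Zmat3 and Ccng1, both known targets of p53, were also among the 10 highest, at 0.60 to 0.74 and 0.59 to 0.99. The barcodes were chosen by their proteasome counts, so these values are a description of that choice.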
